A study of Drosophila melanogaster with 3 samples.

Results

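Intronic binding sites of Bab1-GFP are the subject here: peaks of a ChIP-seq experiment whose summit lay inside a gene but outside every exon and every promoter. ChIP-seq recovers the DNA that is attached to a chosen protein and sequences it, and a peak is a stretch of the genome where the recovered DNA piled up, with the summit as its highest point. Of the 6896 peaks in the authors' list of reproducible peaks, selected by irreproducible discovery rate (IDR), 1316 (19.1%) met this definition. A promoter was taken as 1000 bp upstream to 100 bp downstream of any annotated transcription start site (TSS), and promoters took precedence over exons, exons over introns. The other IDR peaks lay in promoters (5014), in exons (275) and between genes (291). The definition uses positions alone, and the bases of the genome that satisfy it are called eligible below.

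The experiment had 1 group, Bab1-GFP adult females, with 3 biological replicates of whole Drosophila melanogaster flies of unknown age. The transgenic line carried the bab1-RA (bab1-s) form of Bab1 fused to GFP at the C terminus, and the immunoprecipitation used an antibody against GFP. The construct was studied in 1 line, and no library of untagged flies was analysed here, so binding by Bab1 and background of the immunoprecipitation cannot be told apart in these lists, and whole flies mix all tissues. The signal value of a peak is the peak caller's own measure and can be compared within a list only, so replicates were compared by rank. For each replicate, a top list was made of its 6896 strongest peaks by signal value, as many as the IDR list holds. Read counts were not used here, and the depth behind each peak is unknown.

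The bab1 gene (bric-a-brac 1) encodes a nuclear protein that pairs with others through its BTB domain and contacts DNA through a pipsqueak-type domain, with a known preference for stretches of A and T. It is known for roles in the pigment pattern of the abdomen, in ovary terminal filament cells and in segments of the leg and antenna. Fly introns, the long first introns of regulatory genes above all, are known to carry many enhancers, which are stretches of DNA that control transcription of a gene from a distance.

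The sequences at the strongest intronic summits show the base composition on which the sequence results below turn. Each window holds 101 bp of the RefSeq release 6 assembly (the assembly that dm6 names), plus strand, with dm6 coordinates and with the summit in the middle. The first 6 windows are among the 7 strongest intronic peaks found in all 3 top lists. The last pair of windows was chosen because each holds a pattern described with the sequence results. Capitals mark TATAAA, the TATA box pattern, in CG32772, TATTTATA, the Mef2-like pattern, in CG32486, and TATCGATA, the DRE, in the window shared by Atg1 and CG42709. Not every match is in capitals: the windows of norpA and ush also hold TATAAA on the other strand, where it reads TTTATA. The peak over CG11050 had the highest signal value of all 6896 IDR peaks.
CG11050 (chr2L:6612641-6612741): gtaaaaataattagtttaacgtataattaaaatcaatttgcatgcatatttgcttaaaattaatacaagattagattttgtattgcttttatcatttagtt
CG32772 (chrX:4910322-4910422): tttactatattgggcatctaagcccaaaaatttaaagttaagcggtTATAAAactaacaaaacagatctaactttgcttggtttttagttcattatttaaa
norpA (chrX:4324935-4325035): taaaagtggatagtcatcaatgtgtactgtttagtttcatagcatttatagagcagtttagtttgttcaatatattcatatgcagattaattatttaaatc
Tlk, strongest peak (chrX:3742167-3742267): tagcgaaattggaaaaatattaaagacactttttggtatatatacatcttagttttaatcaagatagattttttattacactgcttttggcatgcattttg
Tlk, next peak (chrX:3774391-3774491): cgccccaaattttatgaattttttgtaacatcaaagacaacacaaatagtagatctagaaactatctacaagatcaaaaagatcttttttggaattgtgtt
ush (chr2L:481004-481104): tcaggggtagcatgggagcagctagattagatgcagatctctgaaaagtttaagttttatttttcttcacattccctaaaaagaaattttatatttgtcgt
CG32486 (chr3L:3060754-3060854): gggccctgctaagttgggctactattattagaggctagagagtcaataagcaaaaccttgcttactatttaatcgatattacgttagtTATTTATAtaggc
Atg1 and CG42709 (chr3L:12794693-12794793): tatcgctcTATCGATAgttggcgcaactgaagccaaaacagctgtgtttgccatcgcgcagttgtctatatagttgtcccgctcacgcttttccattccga

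The first 6 windows are poor in G and C: G and C made up 18.8% of the bases at CG11050, 26.7% at CG32772, 25.7% at norpA, 25.7% and 28.7% at the pair of Tlk peaks and 33.7% at ush. The median over all intronic peaks was 34.7%.

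The strongest intronic site lay in the second intron of CG11050 (2L, 6612249 to 6613129, summit 1004 bp downstream of the TSS of CG11050). Its signal value was 9887, and it ranked 1 in replicate 1, replicate 2 and replicate 3. The intron is only 140 bp long and the peak is 881 bp wide, so the peak also covers neighbouring exons. The next site lay in the first intron of CG32772 (X, 4909953 to 4910730, signal 5196) and ranked 7, 7 and 5 in replicates 1, 2 and 3. The peak in norpA, the gene of the phospholipase C that photoreceptors use, lay in the first intron (X, 4324686 to 4325245, signal 4311), 1376 bp downstream of the TSS, with ranks of 10, 10 and 11.

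These 3 sites thus held almost the same rank in every replicate. Tlk, which encodes the Tousled-like kinase of chromatin assembly, carried a pair of strong sites, each in an intron that is the first of a transcript. The stronger lay at X, 3741905 to 3742727 (signal 3780) and ranked 16, 15 and 15 in replicates 1, 2 and 3. The other lay at X, 3774240 to 3774692 (signal 3128) and ranked 29, 29 and 21. The peak in ush, the Friend-of-GATA cofactor gene u-shaped, lay at 2L, 480548 to 481542 (signal 3024), with ranks of 39, 27 and 32. The nearest TSS to it belonged to another gene, cbt, with the summit at -1366 bp, upstream of it.

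**Figure D1:**
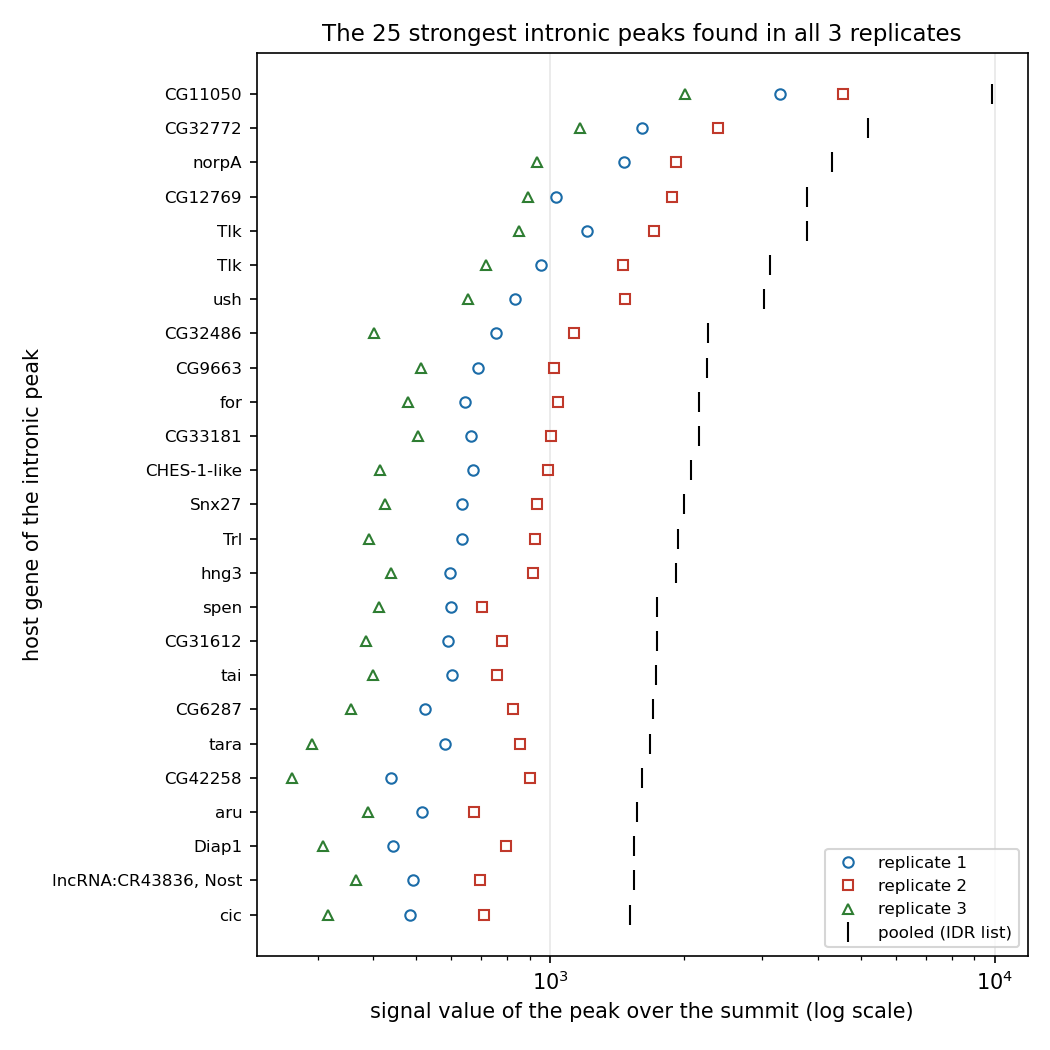
Signal values (x axis, log scale) of the 25 strongest intronic peaks found in the top lists of all 3 replicates, with the host gene on the y axis. Circles, squares and triangles stand for replicates 1, 2 and 3 and the black bars for the pooled list. CG11050 leads in every list with 9887 in the pooled one, and each list has its own scale, so the horizontal shift between symbols is not a difference in binding.

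Among the 25 strongest intronic peaks found in all 3 top lists, 20 lay in an intron that is the first of its transcript, 9 lay on X and 9 on 2L. Of all 1316 intronic peaks, 31.0% lay on X and 14.9% on 2L. By a wider rule, the first intron of any transcript, 75.2% of the 1316 lay in first introns. In 19 of the 25, G and C made up less than 30% of the summit window, with a median of 25.7%. The range ran from 17.8% at CG42258 (X, 12472212 to 12472662, signal 1613) to 52.5% at tai. The lowest rank of any of the 25 was 166 in replicate 1, 191 in replicate 2 and 259 in replicate 3. High ranks are favoured by the choice itself, which took the highest pooled signal values among peaks in all 3 top lists.

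Several of these hosts encode regulators of transcription or chromatin. Trl encodes the GAGA factor, a BTB protein that opens chromatin, and its peak (3L, 14759286 to 14759734, signal 1936) ranked 80, 94 and 104 in replicates 1, 2 and 3. The peak in spen, a corepressor gene, ranked 88, 170 and 86 (2L, 166274 to 167103, signal 1741). The peak in tai, which encodes a coactivator of the ecdysone receptor, lay 28880 bp from the nearest TSS (2L, 9205053 to 9205513, signal 1728) and ranked 87, 141 and 96. The peak in cic, the HMG-box repressor gene capicua downstream of EGFR signalling, lay in a first intron of 34095 bp (3R, 20261436 to 20261818, signal 1513) and ranked 138, 164 and 162. The peak in tara, a gene with known genetic ties to the trithorax group, ranked 95, 111 and 200 (3R, 16236732 to 16237221, signal 1679).

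Further hosts among the 25 encode a kinase, an apoptosis inhibitor, a forkhead factor and a sorting protein. The peak in for, which encodes a cGMP-dependent protein kinase known for foraging behaviour, ranked 75, 61 and 62 (2L, 3655612 to 3656002, signal 2165). The peak in Diap1, the inhibitor of apoptosis, ranked 162, 126 and 178 (3L, 16045804 to 16046396, signal 1545). CHES-1-like, a forkhead factor gene, had a peak of signal 2076 (X, 7698203 to 7698607), Snx27, a sorting nexin gene, 1 of signal 1998 (X, 5735272 to 5735668), and aru 1 of signal 1572. The remaining hosts were CG12769 (signal 3790), CG32486 (2260), CG9663 (2252), CG33181 (2164), hng3 (1918), CG31612 (1738), CG6287 (1700) and Nost, which shares its peak with lncRNA:CR43836 (1542).

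Most intronic peaks were moderate rather than extreme. Their signal value had a median of 306.7 (quartiles 242.3 and 468.4), against a median of 326.3 (255.5 and 461.6) in promoter peaks. Their width had a median of 331 bp against 325 bp. Within the IDR list, introns held 19.7% (exact 95% confidence interval 17.9% to 21.7%) of the strongest quartile of peaks, then 16.0%, 18.3% and 22.3% (20.4% to 24.4%) of the weakest, with 1724 peaks in each. Intervals in this text are exact (Clopper-Pearson) and cover counting error only. Beyond the IDR list the share climbed: it was 30.9% at ranks 6897 to 10000 of the pooled list and 45.3% at ranks 15001 to 20000. Eligible introns make up 39.0% of the bases of the main chromosomes (52.2 Mb) and promoter windows 14.6% (19.6 Mb).

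Intronic peaks ranked below promoter peaks in each replicate. On a scale where 100 is the strongest peak of a top list, the median intronic peak stood at 44.0 in replicate 1, 44.8 in replicate 2 and 41.5 in replicate 3, against 52.5, 52.2 and 53.7 for the median promoter peak. The differences were -8.43, -7.38 and -12.2, a mean of -9.33 ± 2.52 (SD, n = 3), with the intronic median lower in 3 of 3 replicates. The exact two-sided sign-flip permutation test over replicates gave p = 0.25, which is the smallest p that 3 replicates allow, so no difference here can pass the usual threshold. Replicate top lists held 1400, 1368 and 1389 intronic peaks in replicates 1, 2 and 3, or 20.1% ± 0.236 (SD, n = 3) of their peaks, and these replicates are separate samples by label only, so the spread may be technical in part.

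Of the 1316 intronic peaks, 695 (52.8%, 50.1% to 55.5%) were found in all 3 top lists, against 59.0% (57.6% to 60.4%) of promoter peaks and 57.0% of all IDR peaks. A further 394 were found in 2 top lists, 204 in 1 and 23 in none. Replicate 2 held 84.0% of the intronic summits, replicate 1 held 77.1% and replicate 3 held 72.6%. Support followed strength: 93.5% of the intronic peaks in the strongest quartile of the IDR list were in all 3 top lists, against 93.6% of the promoter peaks there, while in the weakest quartile the shares were 7.79% and 10.6%. Signal values of the intronic peaks found in both lists of a pair had a Spearman's rho of 0.771 in replicates 1 and 2 (874 peaks), 0.740 in 1 and 3 (782 peaks) and 0.710 in 2 and 3 (823 peaks). The peaks are not independent points, and the IDR list was chosen for agreement between the same replicates.

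The strongest intronic peak missing from a top list lay in Fhos, a gene of actin assembly (3L, 8767809 to 8768299, signal 1201, IDR rank 257). It ranked 291 in replicate 1 and 176 in replicate 2, and no peak of replicate 3 covered its summit. The peak in trbl, the Tribbles pseudokinase gene (3L, 20399549 to 20400097, signal 675.2), ranked 882 in replicate 1 and 497 in replicate 2 but 7922 in replicate 3. In bon, the TIF1-type cofactor gene bonus, a peak of signal 665.6 (3R, 20594340 to 20594593) ranked 1222 in replicate 1 and 2217 in replicate 3 but had no peak over its summit in replicate 2. A neighbouring IDR peak in bon (3R, 20594538 to 20594762, signal 593.2) ranked 509 in replicate 2, 19368 in replicate 1 and 7687 in replicate 3, so replicate 2 did have a strong peak beside that site. These 3 genes were chosen after their values were seen.

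Intronic peaks crowded toward transcription starts even though promoters were excluded. The median summit stood 2141 bp from the closest TSS. Downstream of a TSS they numbered 77.0 per eligible Mb at 501 to 1000 bp, 57.7 at 1001 to 2000 bp, 28.6 at 2001 to 5000 bp, 19.6 at 5001 to 10000 bp and 7.24 farther away. The replicate top lists gave 86.9 ± 6.03 per eligible Mb at 501 to 1000 bp and 6.68 ± 0.435 beyond 10000 bp (SD, n = 3 each). Upstream of the nearest TSS, inside another gene or another transcript, the density was 42.7 per eligible Mb at 1001 to 2000 bp and 6.12 beyond 10000 bp. Close to the TSS the values rested on few peaks: 80.9 per eligible Mb at 101 to 250 bp downstream (28 peaks) and 44.8 at 251 to 500 bp (41 peaks). Replicates 1, 2 and 3 gave 52.0, 98.2 and 80.9 in the nearer bin and 52.4, 57.9 and 39.3 in the farther one, so the order of the pair was not the same in each.

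**Figure D2:**
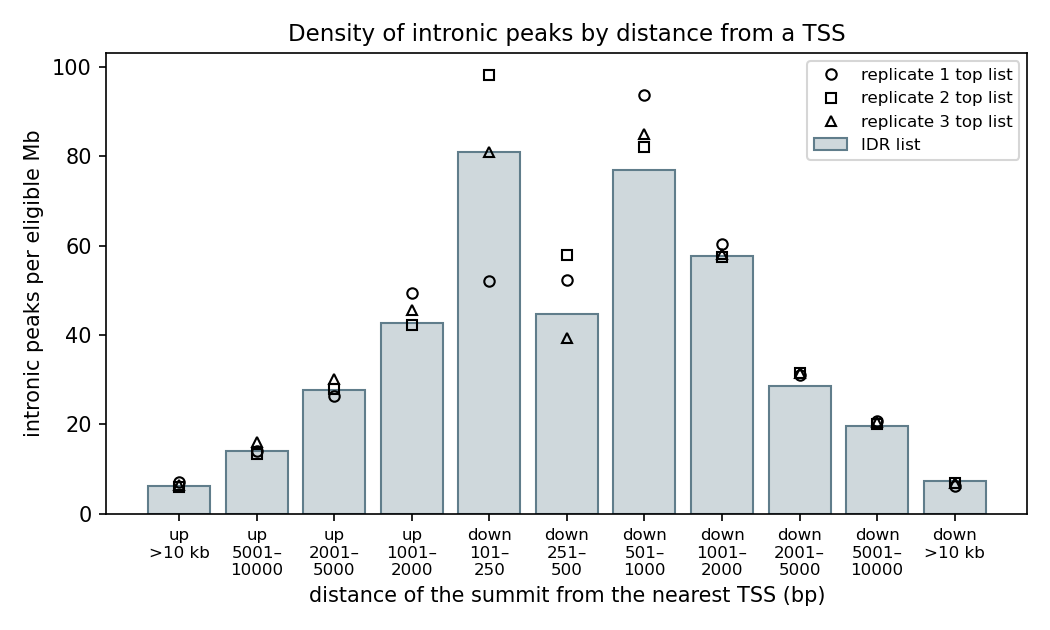
Intronic peaks per eligible Mb (y axis) by distance of the summit from the nearest TSS (x axis, upstream on the left and downstream on the right). Bars are the IDR list and symbols the 3 replicate top lists. The bars fall from 77.0 at 501 to 1000 bp downstream to 7.24 beyond 10 kb, and the replicates follow the same order from 501 bp downstream on, while they spread widely at 101 to 250 bp.

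The 21 intronic peaks at 101 to 200 bp downstream of a TSS had a median signal value of 274.5, and the 1376 promoter peaks at 1 to 100 bp downstream had 298.5. On the upstream edge, 29 intronic peaks at 1001 to 1200 bp had a median of 304.6 and 76 promoter peaks at 801 to 1000 bp had 304.5. Of all intronic peaks, 1162 (88.3%) lay wholly in eligible bases, 115 reached into an exon and 76 into a promoter window. Some peaks overlapped: the 1316 summits lay in 1308 distinct intervals, which merge into 1273 separate stretches.

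First introns carried more of the peaks than of the bases. Of the 1316 summits, 989 (75.2%, 72.7% to 77.5%) lay in the first intron of some transcript, which holds 44.1% of eligible bases. In the replicate top lists the share was 75.9%, 75.9% and 75.8% in replicates 1, 2 and 3. With only bases counted that are first intron in every transcript with an intron there, the share was 45.8% (43.1% to 48.6%), against 26.6% of eligible bases, and 46.8% ± 0.580 in the replicate top lists (SD, n = 3). First introns begin near a TSS, so this share and the fall with distance describe overlapping properties.

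The introns that held peaks were long. There were 964 of them, taking the smallest intron at each summit. Their median length was 5303 bp, against 130 bp over the 48660 introns that hold any eligible base. A longer intron has more bases in which a summit can fall, so these medians do not show a preference for long introns. A peak had its summit a median of 1137 bp from the nearest splice site, and 10.4% lay within 200 bp of 1. Within their introns, cut into 3 equal parts, 589 summits lay in the 5′ part, 426 in the middle and 301 in the 3′ part. Introns with 2 or more peaks numbered 211 and held 563 of the peaks, and the fullest intron held 10.

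A total of 847 genes held at least 1 intronic peak, out of 10511 genes with eligible bases (8.06%). Of these, 564 held 1, 166 held 2 and 117 held 3 or more, and 821 were protein-coding. Host genes had a median of 8798 eligible bp, against 309 bp in the genes without an intronic peak. Longer genes likewise have more room for a summit. With genes split into 5 equal groups by eligible bp, the longest held 22.5 intronic peaks per eligible Mb, the lowest density. The next group held 65.7. From the shortest up, the other 3 groups held 35.2, 29.3 and 33.3, on 4, 9 and 28 peaks. In 94 cases the summit lay in more than 1 gene body, and each gene was then counted.

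Genes with an intronic peak also more often had a peak at their own promoter. Of the 847 hosts, 619 (73.1%) had an IDR summit in the promoter window of a TSS of their own, against 38.4% of the 9664 other genes. In the replicate top lists the shares were 76.3%, 70.4% and 74.2% of the hosts of replicates 1, 2 and 3, against 37.3%, 37.0% and 35.8% of the other genes. The difference was 36.9 ± 3.07 percentage points (SD, n = 3), higher among hosts in 3 of 3 replicates (exact two-sided sign-flip permutation test, p = 0.25, the smallest possible). Hosts are longer genes, so the shares were also taken within the same 5 groups by eligible bp. In the group of the longest genes the shares were 75.4% of 597 hosts and 32.6% of 1505 other genes, and in the next group they were 71.4% of 210 hosts and 45.3% of 1890 other genes. The 3 groups of shorter genes held few hosts: the shares were 55.6% of 27 hosts and 44.2% of other genes, then 22.2% of 9 hosts and 37.8% of other genes, and 2 of 4 hosts and 31.4% of other genes in the shortest.

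The genes with the most intronic peaks were largely on X. Mnt, which encodes the Max-binding repressor that opposes Myc, held 14 in 22986 eligible bp, and its replicate top lists held 13, 13 and 12. Its strongest peak had a signal value of 1031 (rank 361), and 8 of the 14 were in all 3 top lists. Tlk held 12 (12, 12 and 13 in the replicates), which include a site of rank 15. Tis11, which encodes a CCCH zinc finger protein that destabilises mRNA, held 9 in only 16015 eligible bp, or 5.62 per 10 kb, close to the 6.09 per 10 kb of Mnt.

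Raf, the kinase gene of the Ras pathway, held 10 (9, 10 and 9 in the replicates), 7 of them in all 3 top lists. On the autosomes, shn, the zinc finger gene schnurri of Dpp signalling, held 10 (6, 9 and 9), sbb held 9 (10, 10 and 9) and tara held 9 (10, 7 and 10). Of the 9 in tara, 2 were in all 3 top lists, and of the 10 in shn, 3 were. The strongest peak of tara, at 1679, nevertheless exceeded that of Raf, at 1411. Drak, a kinase gene of the death-associated family, held 9 (7, 8 and 7). The pair lncRNA:CR44357 with 12 and CG1677 with 11 overlap on X and share peaks, and lncRNA:CR44357 spans 187710 eligible bp, so its density was 0.639 per 10 kb.

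At bab1 itself, the gene that the tagged protein comes from, all 5 intronic peaks lay in 1 first intron of 58746 bp. Their support varied. The strongest (3L, 1084323 to 1084746, signal 369.3) was in all 3 top lists with ranks of 4756, 3849 and 1333, and stood 16554 bp downstream of the TSS. The peak at 1083401 to 1083591 (signal 244.8) ranked 2342, 7457 and 14763 in replicates 1, 2 and 3, so replicate 1 alone held it in its top list. That at 1093060 to 1093193 (234.5) ranked 7358, 5760 and 3172 and was in 2 top lists. The peak at 1085764 to 1086187 (202.1) ranked 10638, 9703 and 3597 and was in 1, and the peak at 1098505 to 1098928 (203.9) ranked 9483, 10114 and 8960 and was in none. G and C in the summit windows of bab1 ran from 14.9% at 1083401 to 1083591 up to 62.4% at 1098505 to 1098928.

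Gene groups differed in how many of their genes held an intronic peak, against 8.06% of all genes with eligible bases. The lists of genes were drawn up with earlier results of these data known, so the counts are descriptions. Because a longer intron can hold more peaks, each list with a host is also given its density per eligible Mb, which was 25.2 over all introns. Several counts are small and moved by over 1.5 times when 1 replicate was left out and only peaks in both other top lists were kept, and such values stand beside the list.

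Genes of the ecdysone response, the steroid hormone pathway of moulting and egg production, together with nuclear receptors, held an intronic peak in 10 of 26 (38.5%), at 56.5 per eligible Mb. The strongest lay in tai, followed by Hr4, a nuclear receptor gene (X, 1947589 to 1947889, signal 1093), and Eip75B, another (3L, 18019668 to 18019983, signal 1092), which held 7 peaks each. Eip74EF, an ETS factor gene of the early response, held 5 (strongest signal 635.2). The strongest peak of each of these 4 genes was in all 3 top lists.

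Genes of BTB and pipsqueak-domain factors, the protein family of Bab1, held intronic peaks in 7 of 19 (36.8%), at 41.5 per eligible Mb. Besides Trl, psq, which encodes the founding pipsqueak-domain protein, held 8 (2R, strongest signal 1097), ken held 3 (592.5) and mod(mdg4), an insulator cofactor gene, held 1 (474.8, missing from the top list of replicate 2). Genes of the Polycomb and trithorax groups, which keep genes off or on, held them in 8 of 35 (22.9%), at 58.5 per eligible Mb, among them ph-p (635.1), trx (457) and Utx (377.3). The gene tara was not on that list, so its 9 peaks are not in this count or density.

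Notch pathway genes held intronic peaks in 7 of 20 (35.0%), at 49.8 per eligible Mb, led by mam, a coactivator gene (signal 772.9), the receptor gene N (719.6), the protease gene kuz (561.2) and the glycosyltransferase gene fng (485.3). Genes of the EGFR, Ras and Raf pathway held them in 10 of 29 (34.5%), at 49.97 per eligible Mb. They were led by cic and Raf (1411), with aos, the gene of a secreted inhibitor (605.7), and aop, an ETS repressor gene (454.5). Of the 23 intronic peaks in these genes, 10 lay in Raf. Hippo pathway genes held them in 5 of 21 (23.8%), at 45.9 per eligible Mb, among them crb (1105), ex (901.2), dco (562) and wts (335.5), and JAK/STAT genes in 3 of 12, at 31.7 per eligible Mb, in Stat92E (601.2), Ptp61F (342.4) and Socs36E (210.9). Replicate 2 alone had the Socs36E peak in its top list.

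Genes of Dpp and activin signalling held intronic peaks in 4 of 20, at 80.0 per eligible Mb, and 10 of their 15 peaks lay in shn. The others were at Dad (500.8), wit (310.5) and sog (207.5). Wnt pathway genes held them in 2 of 25, at 6.10 per eligible Mb, namely the receptor gene fz (529.6) and dlp (231.5), a share close to that of all genes. Insulin and TOR genes held them in 2 of 27 (7.41%), at 26.4 per eligible Mb, in REPTOR (475.8) and InR (214.6), and immunity genes in 2 of 20, at 21.5 per eligible Mb, in Tl (304.6) and cact (204). Without replicate 1, 2 or 3 the Wnt list and the insulin and TOR list each counted 1 host, and the immunity list had 0, 0 and 1. Circadian clock genes held them in 6 of 16 (37.5%), at 48.5 per eligible Mb, led by Pdp1 (926), vri (738.4), dco and nmo (483.4).

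Genes of the nervous system split between lists. Neural RNA-binding protein genes held intronic peaks in 13 of 28 (46.4%), led by mub (1149), the translational repressor gene pum (919.1), brat (577.4) and elav (532.8). Their density of 14.1 per eligible Mb was below that of all introns, with a median of 30072 eligible bp per gene. The BTB and pipsqueak-domain list, of a like median of 29169 eligible bp, stood at 41.5 per eligible Mb. The neural list had the highest share in the IDR list, but not under every alternative: without replicate 1 it counted 10 hosts of 28, against 6 of 16 in the circadian list, and among the stronger peaks 8 of 28, against 6 of 19 in the BTB and pipsqueak-domain list. Ion channel and synapse genes held them in 3 of 57 (5.26%), at 3.32 per eligible Mb, with a median of 22654 eligible bp. Their hosts were dlg1, a scaffold protein gene (X, 11373348 to 11373700, signal 1060), Nmdar1 (354.2) and dnc (228), whose peak was in no top list. Genes of cell adhesion and axon guidance held them in 12 of 44 (27.3%), at 10.3 per eligible Mb, led by Ptp10D (990.2), kirre (920.1), Nrg (633.3) and Ten-a (441.8), all on X. Without replicate 1 the adhesion list counted 7 hosts, and without replicate 1 or 2 the ion channel list counted 1.

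**Figure D3:**
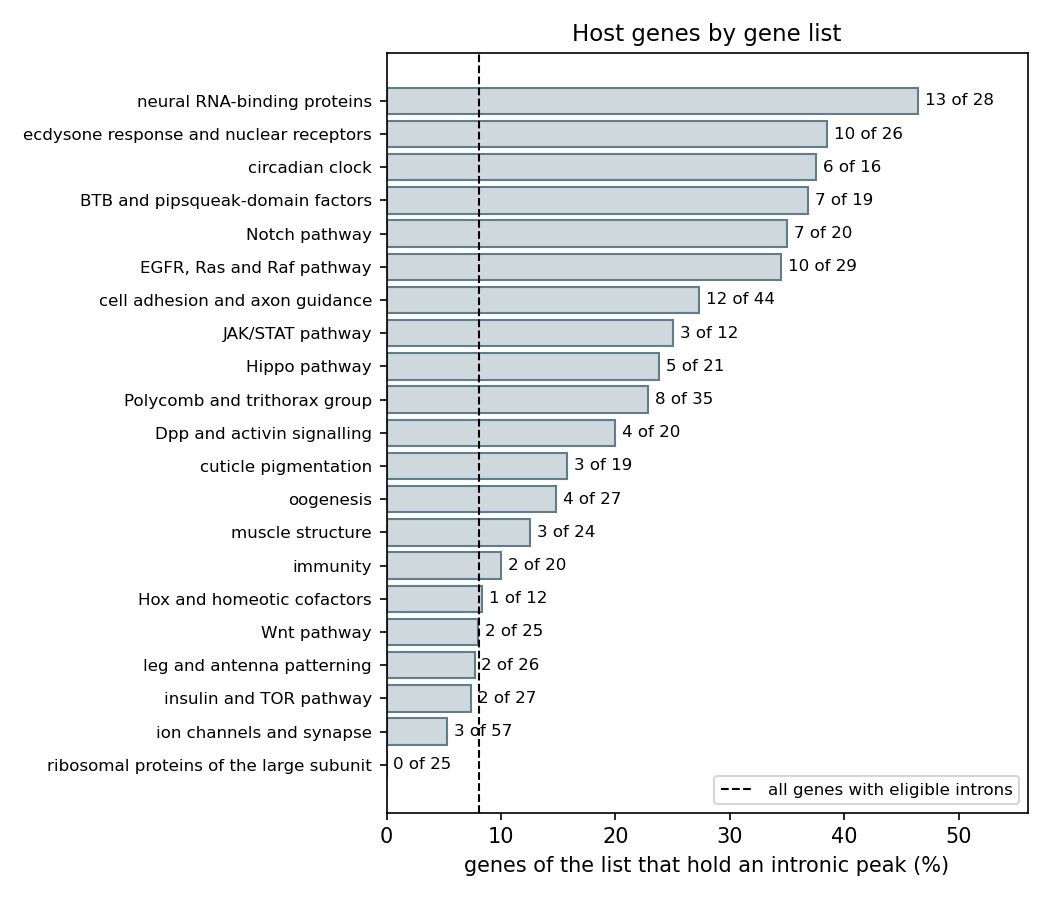
Share of the genes of each list that hold an intronic peak (x axis, percent of the genes with eligible introns), with counts beside the bars. The dashed line is the share over all genes with eligible introns, 8.06%. In this list of peaks neural RNA-binding protein genes stand highest with 13 of 28, and large-subunit ribosomal protein genes lowest with 0 of 25.

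Genes of leg and antenna patterning held intronic peaks in 2 of 26 (7.69%), namely bowl (366) and ct (343.1), at 8.65 per eligible Mb, and Hox genes with their cofactors in 1 of 12 (8.33%), at Antp (266), at 2.59 per eligible Mb. Genes of cuticle pigmentation held them in 3 of 19 (15.8%), at 29.1 per eligible Mb: bab1, stw (277.5) and t (253.1). Of the 7 intronic peaks in these genes, 5 lay in bab1. Genes of oogenesis held them in 4 of 27 (14.8%), at 23.8 per eligible Mb, led by Sxl, the master switch of female development (X, 7095538 to 7095946, signal 1455), which ranked 158, followed by hts (431.7), sqd (407.9) and piwi (278). Muscle structure genes held them in 3 of 24 (12.5%), at 23.2 per eligible Mb, in Mef2 (593.4), Zasp52 (296.2) and Tm1 (251.8), and in 1 without replicate 1. None of 25 large-subunit ribosomal protein genes held 1, but their introns outside promoters are short, with a median of 82 eligible bp.

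The X chromosome carried far more intronic peaks per base than the autosomes, and this excess exceeded that of promoter peaks. X held 408 of them (31.0%), or 40.6 per eligible Mb, against 21.8 on the large autosome arms, a ratio of 1.86. Over replicates 1, 2 and 3 the ratio was 1.82, 1.84 and 1.78, against 1.21, 1.22 and 1.19 for promoter peaks per Mb of promoter window. The log2 ratio was higher for introns by 0.59 ± 0.01 (SD, n = 3), in 3 of 3 replicates (exact two-sided sign-flip permutation test, p = 0.25, the smallest possible). The autosome arms ran from 18.9 per eligible Mb on 3R to 23.3 on 3L, so no arm came near X. Chromosome 4 held 2 intronic peaks, or 3.49 per eligible Mb. Replicates 1, 2 and 3 had 3, 5 and 5 there, or 5.23, 8.72 and 8.72 per eligible Mb. Its 31 promoter peaks made 204.3 per Mb of promoter window, against 248.8 on the large autosome arms.

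**Figure D4:**
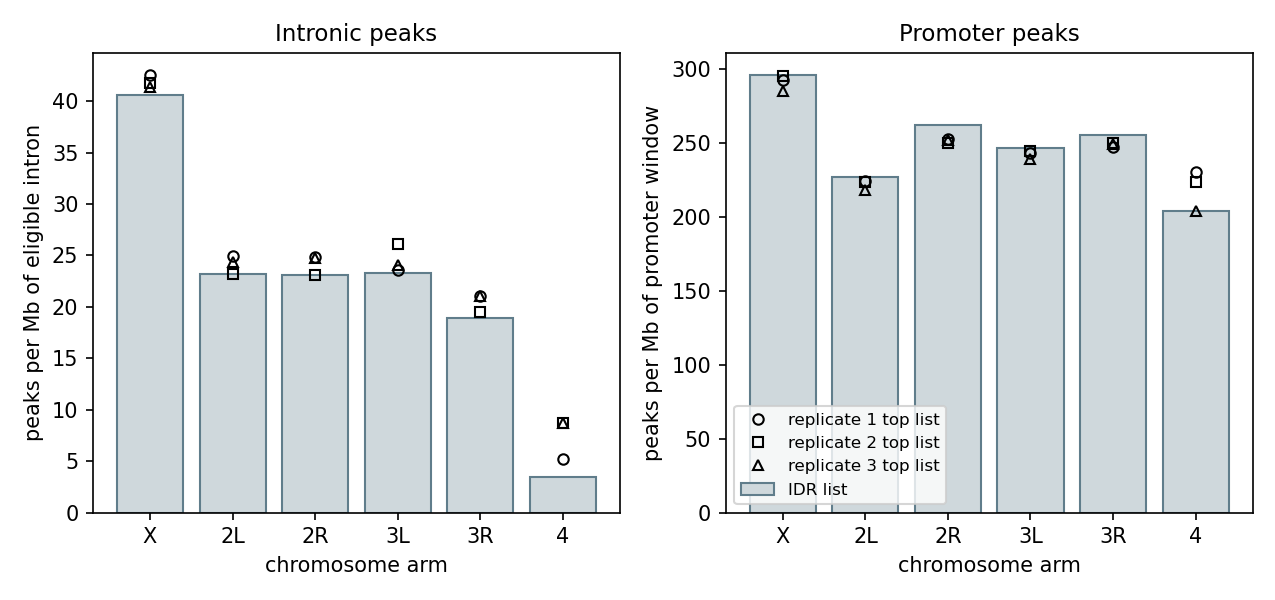
Intronic peaks per Mb of eligible intron (left) and promoter peaks per Mb of promoter window (right) on each chromosome arm. Bars are the IDR list and symbols the 3 replicate top lists. X stands at 40.6 in introns against 18.9 to 23.3 on the autosome arms, a wider gap than in promoters. Chromosome 4 is lowest in introns at 3.49, which rests on 2 peaks.

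Intronic peaks on X were also stronger. Their median signal value was 332.9, against 300.4 on the autosome arms, and 57.8% of them (52.9% to 62.7%) were in all 3 top lists, against 50.6% (47.2% to 53.9%). They lay a median of 2400 bp from the nearest TSS, against 1979 bp on the autosome arms. These are descriptions over peaks of 1 list, with no test. In females X is present in the same number of copies as the autosomes, and the cause of the excess on X was not tested.

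The DNA under intronic summits was richer in A and T than the DNA beside it. In the 101 bp at the summit, A and T made up 64.3% of bases on average, against 59.3% in flanking windows of equal size, centred 500 bp away. They made up 60.0% of all 493670 windows of that size that fill the eligible introns. The rise was narrow: at 100 bp to either side of the summit A and T made up 60.6% and 60.1%. In replicates 1, 2 and 3 the summit exceeded the flanks by 3.63, 4.86 and 2.08 percentage points. Promoter summits exceeded their flanks by 5.25 percentage points, at 60.6% against 55.4%, in a broader hump, while intergenic summits did so by 1.35 and exonic summits had 3.88 percentage points less.

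The difference in A and T followed the strength of the peak. In the strongest quartile of intronic peaks it was 9.61 percentage points, then 5.65, 3.27 and, in the weakest, 1.45. Each replicate showed it, with the strongest quartile of its own intronic peaks exceeding the weakest by 7.32, 8.56 and 6.10 points, a mean of 7.33 ± 1.23 (SD, n = 3; exact two-sided sign-flip permutation test, p = 0.25, the smallest possible). Promoter peaks had a like gradient of 7.54 ± 1.36, so it was not particular to introns. Spearman's rho between signal value and A and T at the summit was 0.297 over the 1316 intronic peaks and 0.217 over the 5014 promoter peaks. Base composition can alter recovery in sequencing libraries, and its part in this gradient was not tested.

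**Figure D5:**
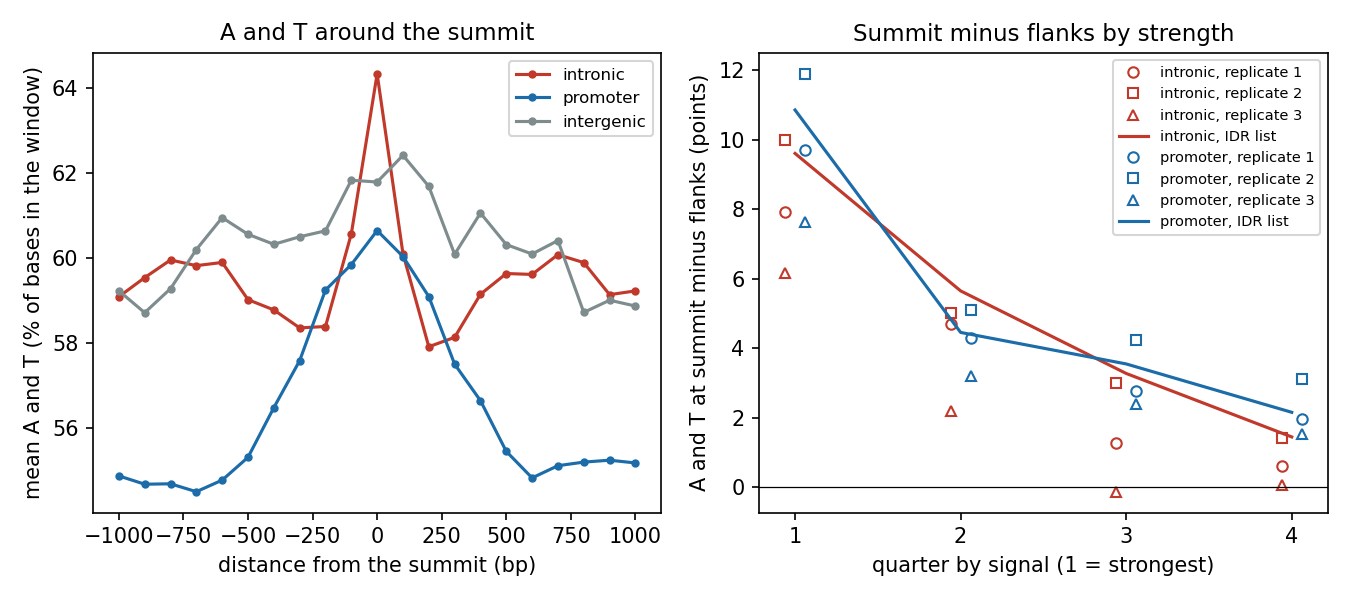
Left: mean share of A and T (y axis, percent) in windows of 101 bp by distance from the summit (x axis) for intronic, promoter and intergenic IDR peaks. Right: A and T at the summit minus flanks 500 bp away (y axis, percentage points) by quartile of signal value (x axis, 1 is the strongest), with lines for the IDR list and symbols for the replicates. The intronic curve peaks narrowly at 64.3%. Both classes fall from the strongest quartile to the weakest, from 9.61 to 1.45 points in introns.

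Of 24 sequence patterns searched on both strands, 3 stood at intronic summits at 1.5 or more times their share in the flanks. TATAAA, the TATA box pattern, was in 263 summit windows (exact interval of the share 17.9% to 22.2%), against 12.4% of flanks and 13.2% of all intronic windows. In the replicate top lists its share was 18.9% ± 1.26, against 12.8% ± 0.137 of flanks (SD, n = 3 each). It was in 26.4% of the strongest quartile of intronic peaks and 16.1% of the weakest. Promoter peaks had like values. The ratio of summit to flank was 1.61 in introns, against 1.52 in promoter peaks (15.9% of summit windows and 10.5% of flanks). The strongest quartile exceeded the weakest by 8.46 ± 2.56 percentage points in introns, against 8.33 ± 1.74 in promoter peaks (SD, n = 3 replicates each). With windows of 100 bp on either side its ratio was 1.38 in place of 1.61, and that of the next pattern 1.30 in place of 1.51. TATTTATA, a pattern like the site of the muscle factor Mef2, was in 3.50% of windows against 2.32% of flanks and 2.22% of all intronic windows. Every match to it also contains TATAAA on the other strand. Its ratio in promoter peaks was 1.41. In the strongest quartile of intronic peaks it was in 6.08% of summit windows and 1.67% of flanks. In the weakest it was in 2.43% of each. A match is a description of letters, not a binding site.

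Both 8-base patterns are shown in capitals in the windows of CG32486 and of Atg1 and CG42709. TATCGATA, the DRE of the factor DREF, was in 6 intronic windows only (0.456%), against 0.228% of flanks and 0.217% of all intronic windows. With flanks at 1000 bp its ratio turned to 0.923, so no direction can be read from these 6 windows. The window shown lay in both Atg1, the autophagy kinase gene, and CG42709, at a signal value of 325.7.

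Among the patterns searched, TATCGATA, GGTCACAC, CGATA and CAGCTG were clearly rarer at intronic than at promoter summits, but not all patterns were. TCAGTT, the initiator pattern, had close shares, with 7.37% of intronic and 7.86% of promoter windows. TATAAA was in 19.98% of intronic and 15.9% of promoter windows, and GAGAGA, described below, in 5.70% and 4.05%. TATCGATA was in 0.456% of intronic windows against 5.90% of promoter windows, and GGTCACAC, the core of the M1BP site, was in 1 intronic window (0.0760%) against 4.21% of promoter windows. CGATA, the half-site of the insulator protein BEAF-32, which every TATCGATA contains, was in 12.4% of intronic windows (10.9% of flanks, 10.6% of all intronic windows) against 27.0% of promoter windows (12.03% of flanks). CAGCTG was in 3.42% of intronic windows (4.60% of flanks) against 9.21% of promoter windows (5.29% of flanks). Over all intronic windows GGTCACAC stood at 0.146% and CAGCTG at 3.52%. Low shares were not particular to introns among peaks outside promoters. TATCGATA was in 0.344% of intergenic and 0.364% of exonic windows, GGTCACAC in 0 of either, and CGATA in 13.1% and 12.7%. CAGCTG was in 4.12% of intergenic and 6.55% of exonic windows.

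Over all intronic peaks, some other patterns of T and A also exceeded the flanks, but AAAAAAAA did not. AAAAAAAA was in 7.60% of intronic summit windows, 9.50% of flanks and 7.09% of all intronic windows. In replicate 2 it went the other way, at 9.14% of summit windows and 8.22% of flanks. TATATA was in 8.43% of intronic summit windows against 5.89% of flanks, TAATTA, the homeodomain core, in 9.80% against 7.07%, and TAATAA in 16.9% against 12.3%. Their shares over all intronic windows were 6.78%, 7.63% and 12.9%, in that order. In the weakest quartile of intronic peaks, TATATA and TAATTA went the other way. There TATATA was in 4.86% of summit windows and 5.93% of flanks, and TAATTA in 5.78% and 7.60%. TAATAA still exceeded its flanks there, at 13.7% and 11.7%. In replicate 3, TAATTA was in 7.42% of summit windows and 7.20% of flanks. The ratio of TAATTA was 1.63 with flanks at 1000 bp, where that of TATAAA was 1.58. In introns the ratio was 1.39 for TAATTA and 1.37 for TAATAA, against 1.40 and 1.498 in promoter peaks. CACACA stood at 9.04% against 12.3% of flanks and 9.47% of all intronic windows, and GAGAGA, the element bound by the GAGA factor, stood at 5.70% against 6.76% of flanks and 3.86% of all intronic windows. For CACACA and GAGAGA, too, the direction depended on the peaks. In the weakest quartile of intronic peaks CACACA was in 12.5% of summit windows and 11.1% of flanks, in replicate 3 in 12.5% and 12.2%, and its ratio was 0.967 with windows of 100 bp on either side and 0.960 with flanks at 1000 bp. GAGAGA was in 2.74% of summit windows and 9.88% of flanks in the strongest quartile of intronic peaks, but in 7.60% and 4.86% in the weakest. The replicate top lists gave 6.30% ± 0.355 of summit windows and 6.13% ± 0.317 of flanks (SD, n = 3 each), and windows of 100 bp on either side gave a ratio of 1.22.

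Sequences of 6 bases were ranked by the ratio of summit to flank among the 553 found in at least 5% of intronic summit windows. Because the filter and the ranking both use the summit windows, they favour sequences that are high there, and the first 5 are given as a description. ACAGTA was in 5.02% of summits and 2.17% of flanks, ACTGTA in 7.90% and 4.18%, AAGATA in 10.4% and 5.55%, ATCTTA in 7.75% and 4.14%, and TTATAA in 9.57% and 5.13%. Their shares over all intronic windows were 2.88%, 3.44%, 6.20%, 4.73% and 5.88%, in that order. ACAGTA and ACTGTA overlap when read on opposite strands, as do AAGATA and ATCTTA, and TTATAA overlaps TATAAA. In promoter summit windows the shares were 3.95%, 4.51%, 5.80%, 5.11% and 6.64%. The flanks of promoter peaks had 2.70%, 3.07%, 5.25%, 4.09% and 4.77%, so each sequence exceeded its flanks there as well. For ACAGTA, replicates 1, 2 and 3 gave 4.43%, 4.75% and 4.32% at their own intronic summits, against 2.64%, 2.34% and 2.99% in the flanks.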

How the data were processed

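The data were peak lists from ChIP-seq of Bab1-GFP flies, adult and female, in 3 biological replicates numbered by the labels, which also give sonication and the dm6 build. A list holds 30000 peaks for each replicate and for the pooled replicates. The 6896 IDR peaks all occur unchanged in the pooled list. The aligner, the peak caller and the IDR threshold were not given in the sources used here. Peaks were ranked by the deposited signal values and placed by the deposited summit offsets. The deposited −log10 q values were not used. Depth is unknown.

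Gene models were those of Ensembl release 115 (BDGP6.54) without transposon genes, 18164 in all, and sequence came from RefSeq release 6. Coordinates are 1-based. A summit was promoter, exon, intron or intergenic by the first class that held it. A peak was found in a top list if its summit lay inside 1 of the list's peaks. Patterns were searched on both strands in 101 bp at the summit and in flanks 500 bp away. Exact sign-flip tests ran over the 3 replicates. The steps were tested on simulated positions and sequences. Python 3.11.15, pandas 2.3.3, numpy 2.4.6 and scipy 1.17.1 were used.

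Named are the 25 strongest intronic peaks in all 3 top lists, the 10 genes with the most intronic peaks, the 4 strongest of each gene list, every intronic peak at bab1 and the 5 6-base sequences with the highest ratios. Members, gene lists and patterns were chosen with earlier results of these data known. Alternatives were other promoter windows, other annotations, stronger peaks, other overlap rules, other flanks and each replicate left out.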

Additional observations from a re-analysis of the deposited data

How the results depend on the processing

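Among the stronger 3448 IDR peaks there were 616 intronic peaks, of which 85.6% were in all 3 top lists and 76.8% in first introns, the X over autosome ratio was 2.17, the gene lists had 66 hosts in place of 103, 52.2% of hosts had a promoter peak and the A and T difference was 7.73 points. Promoters of 250 bp on either side gave 74.9% in first introns, 67.9% of hosts with a promoter peak and an X ratio of 1.80, and promoters of 1000 bp on either side gave 70.4%, 79.4% and 1.95. Protein-coding genes alone gave 74.4% in first introns and the RefSeq annotation 75.2%. The share in all 3 top lists was 36.2% with an overlap of at least 50% of both lengths, 49.4% with summits within 100 bp and 92.3% with whole replicate lists.

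Leaving out each replicate and keeping the intronic peaks found in both other top lists gave 782 to 874 peaks, 59.4% to 66.4% of all, 75.7% to 76.6% in first introns, 59.4% to 62.3% of hosts with a promoter peak, an X ratio of 2.02 to 2.10, 77 to 82 hosts in the gene lists and a rank difference of -10.3 to -7.91. Apart from the rank difference, these values still rest on the IDR list and its summits, which come from the pooled replicates, so no replicate was wholly removed. Without a replicate and among stronger peaks, promoter peaks are fewer as well, since both classes come from the reduced list. The rank difference was -27.7 with whole replicate lists and negative under every alternative run.

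Windows of 100 bp on either side left 1 pattern at 1.5 or more times its flank share, the DRE at 1.69, with the TATA box at 1.38 and the Mef2-like pattern at 1.30, and gave an A and T difference of 3.56 points. With flanks at 1000 bp the ratio of the DRE turned to 0.923, which rests on 6 windows, and TAATTA took its place among the 3 patterns at 1.63. Of 105 counts of hosts per list under the alternatives, 83 stayed within 1.5 times and 22 moved. Of those that moved, 13 did so with a replicate left out (in the Wnt, insulin and TOR, ion channel, adhesion, muscle and immunity lists), and 9 among the stronger peaks, where the Hox and immunity lists had 0 hosts, Wnt, insulin and TOR, muscle and pigmentation 1, Dpp 2, adhesion 5 and neural RNA-binding proteins 8. The alternatives for the X ratio and for A and T were chosen after seeing the data. No paired analysis was possible because there was 1 group, so no groups could be paired by replicate number, and the sign-flip tests compare classes of peaks or genes within each replicate. With 3 replicates no test could pass the usual threshold, and depth is unknown.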
